A study of Mus musculus with 50 samples.

Results

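Wide H3K27me2 regions of wild-type (WT) mouse embryonic stem cells (ESCs) were the subject. They are the entries of the WT H3K27me2 list that span at least 5000 bp from start to end, and 7514 of 270131 listed regions met that limit (2.78%). The study profiled chromatin and RNA in the parental E14 line (E14TG2a, WT), in *Ezh2* KO ESCs, which lack the whole *Ezh2* gene and keep *Ezh1*, in *Ezh1/2* dKO ESCs (the dKO line), which lack both genes, and in *Ezh2* Y726D ESCs. This Y726D line carries a point mutation that removes the methyltransferase activity of EZH2 and was made in *Ezh1* KO cells, as was the *Ezh2* R685C line, used here only for peaks of H3K27ac and PcG marks. All mutants are CRISPR/Cas9 clones of E14TG2a. By the methods of the paper, ESCs were grown in serum with leukemia inhibitory factor and inhibitors of GSK3β and MEK, and no group used here had a further treatment. Each line and target had 1 ChIP-seq or ATAC-seq library, and 4 lines had 2 RNA-seq libraries each. The reporting notes of the study speak of biological replicates in general, and the sources used here do not say whether the RNA-seq replicates of a line were separate cultures, so p-values measure the spread between these libraries, which may be technical.

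EZH1 and EZH2 are the alternative methyltransferases of Polycomb repressive complex 2 (PRC2), which places 1, 2 or 3 methyl groups on lysine 27 of histone H3. H3K27me3 marks CpG-rich promoters bound by PRC2 subunits such as SUZ12. H3K27me1 is known from the bodies of transcribed genes, and H3K27me2 is spread widely over the genome between these compartments. Acetylation of the same residue (H3K27ac) marks active promoters and enhancers and cannot coexist with methylation on 1 histone tail.

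Wide regions held far fewer CG dinucleotides than the sites that PRC2 binds most strongly. To show this, 300 bases (mm9, plus strand) are given from the centre of the widest region, of a region of 31412 bp, of a region just inside the width limit and of the WT SUZ12 peak with the highest −log10 p. Every CG is in capitals.
widest region, in *Dnahc8*, chr17:30990360-30990659: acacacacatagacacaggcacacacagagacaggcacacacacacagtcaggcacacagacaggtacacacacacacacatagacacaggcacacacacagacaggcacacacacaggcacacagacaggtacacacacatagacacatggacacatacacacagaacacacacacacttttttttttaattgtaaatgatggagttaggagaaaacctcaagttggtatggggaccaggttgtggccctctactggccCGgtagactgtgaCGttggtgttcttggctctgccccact
region in *Grik3*, chr4:125258750-125259049: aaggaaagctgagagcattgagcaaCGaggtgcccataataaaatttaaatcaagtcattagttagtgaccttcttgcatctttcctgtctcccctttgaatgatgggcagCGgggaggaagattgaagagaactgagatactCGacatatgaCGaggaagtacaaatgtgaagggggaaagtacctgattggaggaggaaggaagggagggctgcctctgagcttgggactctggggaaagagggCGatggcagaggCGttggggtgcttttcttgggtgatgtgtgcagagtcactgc
region of 5000 bp, in *Prep*, chr10:44859458-44859757: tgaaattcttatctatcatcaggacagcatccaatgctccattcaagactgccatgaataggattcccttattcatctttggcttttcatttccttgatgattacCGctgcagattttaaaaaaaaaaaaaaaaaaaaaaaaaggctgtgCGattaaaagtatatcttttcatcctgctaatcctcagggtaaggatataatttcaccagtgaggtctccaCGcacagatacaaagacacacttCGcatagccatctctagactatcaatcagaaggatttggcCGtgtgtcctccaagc
strongest SUZ12 peak, at *Gm1337*, chr2:118528895-118529194: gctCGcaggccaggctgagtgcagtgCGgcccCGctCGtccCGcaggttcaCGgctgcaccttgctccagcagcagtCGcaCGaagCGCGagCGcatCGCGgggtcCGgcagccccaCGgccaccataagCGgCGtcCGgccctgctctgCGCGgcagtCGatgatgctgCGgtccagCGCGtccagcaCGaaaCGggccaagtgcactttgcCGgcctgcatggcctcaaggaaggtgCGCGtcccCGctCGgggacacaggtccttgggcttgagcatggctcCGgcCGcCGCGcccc
The 3 windows from wide regions held 2, 6 and 5 CG, and the SUZ12 window held 35. Over all bases of the wide regions, the observed CG count was 0.219 of the count expected from base composition. It was 0.207 in regions of 2000 to under 5000 bp, 0.186 in shorter regions, 0.191 in the 19 listed chromosomes and 0.663 in the 5404 WT SUZ12 peaks. Per kb, wide regions held 12.5 CG, more than the 10.8 and 9.22 of the narrower classes and the 8.31 of the chromosomes. The SUZ12 peaks held 59.2. GC content was 47.6% in wide regions, 45.7% in regions of 2000 to under 5000 bp, 44.5% in shorter regions and 41.7% in the chromosomes. The flanks of 10 kb on either side of the wide regions had 46.5% GC, close to the regions themselves.

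The list gives for each region a fold enrichment and a −log10 p against the background of the same library. Wide regions were long and shallow. Their median width was 6397.5 bp (interquartile range 5557 to 7936.5 bp), and 5224 measured under 7500 bp, 1471 from 7500 to under 10000 bp, 797 from 10000 to under 20000 bp and 22 at least 20000 bp. Median fold enrichment was 1.91 (range 1.34 to 2.499) in wide regions and 1.75 in narrower ones. Only 437 wide regions (5.82%) had a p of at most 0.01, against 2.93% of the narrower regions. MACS2 marked 53 stronger sub-blocks inside wide regions, 12740 bp in all. Wide regions held 54059972 bp, 15.2% of all listed bases and 2.22% of the listed chromosomes. Because width chose them and the other values come from the same list, these figures are a description. At the limit, the 3 regions just inside measured 5000 bp and lay in *Prep*, *Fndc3b* and *Snx33*, with −log10 p of 1.35, 1.67 and 1.54. The 3 just outside measured 4999 bp, with −log10 p of 1.53, 1.41 and 1.70. The depth behind the list is unknown, and its part in the length and number of regions was not tested.

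Wide regions clustered along the chromosomes. Another wide region lay within 5000 bp of 1692 of them (22.5%) and within 20000 bp of 3781 (50.3%). Chromosome 19 held 52.1 per 10 Mb and chromosome 17 held 45.3, whereas chromosome 11 held 5.14 (61 regions) and chromosome X had 1. The few regions on chromosome X and chromosome 11 went with short lists there (981 and 8541 regions of any width). A stretch of 1313379 bp on chromosome 17 (mm9, chr17:30296170-31609548) was the densest example. It held 49 wide regions, 3 of the 10 widest and 16 protein-coding genes, from *Zfand3* to *Pde9a*, and 40.1% of its bases lay in wide regions.

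The question of placement is whether these regions follow genes. Of the bases of wide regions, 62.2% lay inside a gene of the GENCODE annotation of mm9, 55.8% in introns and 6.39% in exons. The share was 54.7% in regions of 2000 to under 5000 bp, 48.0% in shorter ones and 41.3% over the 19 chromosomes, so it increased with width. Within the wide regions it rose from 60.2% below 7500 bp to 73.4% in the 22 regions of at least 20000 bp. Of the 7514 regions, 4044 lay wholly in genes (53.8%, 95% CI 52.7 to 54.9), 5068 touched a gene (67.4%, 66.4 to 68.5) and 2446 touched none (32.6%, 31.5 to 33.6). A transcription start (TSS) lay in 1353 of them (18.01%), and 6.74% of their bases were within 1 kb of a TSS, against 4.18% of the chromosomes. These Wilson intervals cover counting error only. The 2446 intergenic regions had a median distance of 18051 bp to the nearest gene, 880 lay within 10 kb (36.0%) and 242 over 100 kb away (9.89%). Inside genes of over 20 kb, wide regions showed little preference along the body. From the 5′ to the 3′ quintile by length they took 3.38%, 3.31%, 2.98%, 3.14% and 3.67% of the bases.

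**Figure D1:**
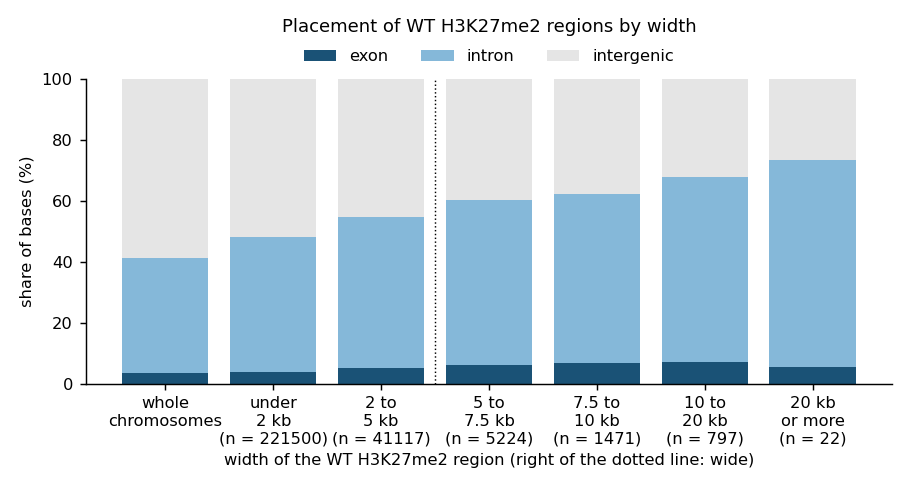
Share of bases (%) in exons, introns and intergenic sequence for WT H3K27me2 regions by width class, with the 19 listed chromosomes on the left. The share inside genes grew from 48.0% in regions under 2000 bp to 73.4% in those of at least 20000 bp, against 41.3% of the chromosomes.

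The widest regions lay in a few long genes. The widest (53510 bp, chr17:30963755-31017264) covered the end of *Dnahc8*, a dynein heavy chain of cilia and flagella, and the second (47719 bp, chr17:30588921-30636639) lay in *Btbd9*, which encodes a BTB-domain protein. The third, of 31412 bp, lay in *Grik3*, a kainate receptor subunit, and the fourth, of 28213 bp, in *Sh3pxd2a*, a scaffold protein of podosomes. Only the fifth (27977 bp, chromosome 5) of the 10 widest touched no gene. The others included those that held or overlapped *Arc*, a neuronal immediate-early gene that lay whole within its region, *Dnahc8* again, *Rxra*, the retinoid X receptor alpha, and *Ccdc85c*. Their −log10 p was between 1.76 and 2.45. The 5 regions with the highest −log10 p (2.67 to 2.99) were shorter, from 5336 to 11683 bp. Their genes were *Sfi1*, *Fam125b* and *Glo1*, 2 of the 5 touched no gene, and 2 of the 5 belonged to the dense stretch of chromosome 17.

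By bases, *Btbd9* led with 177 kb of its 361 kb in wide regions (49.1%), and narrower regions took a further 22.0%. *Odz4*, a teneurin, had 171 kb (23.2%), *Agap1*, a GTPase-activating protein of Arf proteins, 149 kb (33.8%), *Magi1*, a junction scaffold, 139 kb (22.9%) and *Dnahc8* 137 kb (54.6%). *Grik3* followed with 113 kb (50.5%), *Sh3pxd2a* with 108 kb (52.6%) and *Btbd11* with 100 kb (36.6%). *Fgfr2* had 150 kb, but its model in this annotation spans 3009 kb, so its share was 4.98%. These long genes differed widely in their RNA level in WT. Per kilobase of exon, *Dnahc8* had a mean of 49.8 normalized counts, *Grik3* 39.7, *Agap1* 31.9, *Btbd9* 26.8, *Magi1* 26.1, *Odz4* 14.7, *Sh3pxd2a* 9.71 and *Fgfr2* 2.34. The place of *Grik3* among them rests on WT replicate 2, since its normalized counts in the WT replicates were 172 and 540.

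Expression of genes with a wide region was taken from RNA-seq, which the choice of regions did not use. RNA-seq libraries held 3604123 to 5181553 reads on genes. Of the genes of the RNA-seq table, 16405 could be placed on the listed chromosomes and 2865 of them overlapped a wide region by at least 1 bp (17.5%). These member genes accounted for 4714 of the wide regions (62.7%). Their median WT level was 79.97 normalized counts (interquartile range 15.8 to 236), 76.0 in WT replicate 1 and 80.9 in WT replicate 2, and that of the 13540 other genes was 69.8 (4.11 to 382). The medians were therefore close, while the spread was not. No read was found in either WT library for 2.34% of the member genes and 7.02% of the others, and levels over 1000 for 2.20% and 7.41%.

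Wide regions were most frequent in genes of intermediate expression. Of the genes at 0 in both WT libraries, 6.59% had a wide region (95% CI 5.22 to 8.28), and the share was 11.8% above 0 to 5 normalized counts and 18.3% (16.7 to 20.1) above 5 to 20. It reached 28.5% (26.9 to 30.2) above 20 to 100 and 25.2% (23.6 to 26.8) above 100 to 300. It was then 13.5% (12.4 to 14.6) above 300 to 1000 and 5.91% (4.65 to 7.49) above 1000. The highest and the lowest class were the same with genes binned by either WT library alone, where the class above 20 to 100 had 27.9% and 28.1% and the class above 1000 had 5.95% and 5.97%. Genes are not independent replicates, so the intervals describe counting error and no test was made. The share of gene bases in wide regions, which does not grow with gene length by itself, was likewise highest at intermediate levels, though in a higher class, with 0.802% at 0, 5.55% above 20 to 100, 6.75% above 100 to 300 and 1.65% above 1000, so that its lowest class was that at 0.

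**Figure D2:**
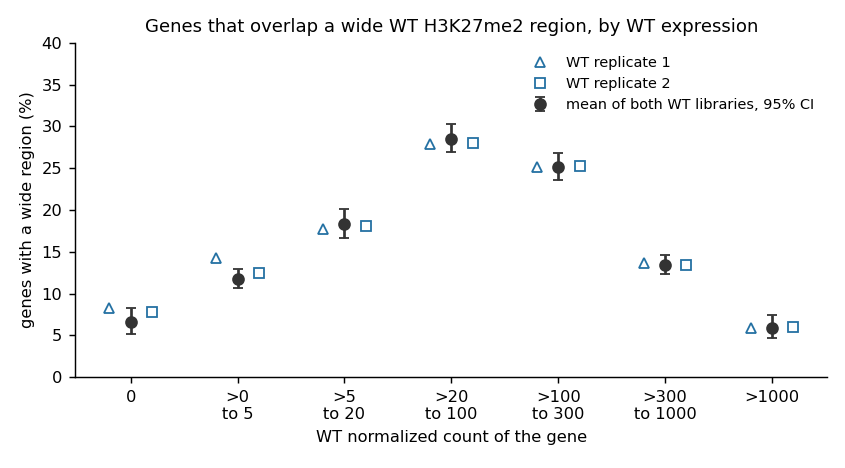
Share of genes (%) that overlap a wide WT H3K27me2 region, by their WT normalized count. Black points with Wilson 95% CI use the mean of both WT libraries, open symbols each library alone. The share peaked at 28.5% above 20 to 100 counts and was 5.91% above 1000.

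Member genes were long, with a median of 46.5 kb against 17.9 kb for the others, and the pattern was read within length classes. Expressed genes were divided into quintiles by WT counts per kilobase of exon and into tertiles by gene length. Among the long genes (over 37.4 kb), the share with a wide region was 21.6% in the lowest quintile of expression, 40.8% (95% CI 38.1 to 43.6) in the middle one and 19.5% (16.4 to 23.0) in the highest. Among the short ones (under 11.9 kb) it was 7.44%, 13.8% (11.7 to 16.3) and 5.27% (4.19 to 6.602). Genes with narrower regions only (9309) had a median of 56.3 normalized counts and genes without any region (4231) one of 189. The 446 genes whose TSS lay in a wide region were lower than all member genes, with a median of 44.8.

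Receptor gene families that ESCs hardly transcribe were nearly free of wide regions. Of 21268 protein-coding genes on the listed chromosomes, 2935 overlapped one (13.8%). Among olfactory receptor genes, which sense odours, it was 2 of 1108 (*Olfr873* and *Olfr76*), and among vomeronasal receptor genes 2 of 331 (*Vmn2r3* and *Vmn1r211*). Those in the RNA-seq table, 63 and 31 genes, had a median of 0.963 normalized counts in WT. Both families are short, with median lengths of 0.960 and 1.09 kb, but narrower regions also took only 5.95% and 1.71% of their bases, against 15.4% over all protein-coding genes. Long neuronal adhesion and synapse genes had a wide region in 10 of 29 cases (34.5%), against 42.7% of all 499 protein-coding genes over 300 kb. Their bases lay in wide regions for 0.502% only, compared with 1.91% in those 499 genes. *Auts2* (60.8 kb in wide regions) and *Sox5* (43.5 kb), both regulators of neural development, held most of it, ahead of *Ntm* (11.98 kb) and *Ctnnd2* (10.3 kb). *Auts2* had 183 and 158 normalized counts in the WT replicates and *Ctnnd2* had 85.4 and 79.9, whereas *Ntm* had 0 and 0.963. None of the 15 PcG target loci, promoters that PRC2 is known to silence in ESCs, overlapped a wide region. Of the 11 that were tested, 6 were called higher in the dKO line, where 3.63% of all genes tested were, and 6 in the Y726D line, where 1.66% were. The median of the 15 loci in WT was 0.963 normalized counts, and testing needed a mean of at least 5 over all 8 libraries. A locus low in WT was thus tested only where a mutant was high, so these counts are no support for a rise. Of 142 genes selected by the symbols of cytosolic ribosomal proteins, 6 overlapped a wide region (4.23%). But 4 of these 6, *Rps6ka2*, *Rps6kb2*, *Rps6kc1* and *Rps6kl1*, belong to the Rps6k kinase genes that the symbols also catch. The other two were *Rpl3l* and *Rpl13a*, of 132. The split into kinases and others, and the names *Rpl13a* and *Rps6kb2*, were chosen after their overlap was seen. *Rpl3l* had 18.7 and 49.1 normalized counts in WT.

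Coverage by other lists was measured on the 9 chromosomes that all 8 H3K27me1 and H3K27me2 lists hold (1, 2, 5, 7, 9, 11, 14, 17 and X), with 3550 wide regions. Values over the chromosomes pool all 9, although chromosome X holds only 1 of these regions and chromosome 11 only 61. The peak lists are not scaled to the spike-in chromatin, so coverage says where a list called enrichment over its own background at a p of about 0.1, not how much of the mark was left. With 1 library for each list, no difference between lines could be tested, and library depth and line cannot be told apart. In WT, H3K27me1 covered 35.4% of the bases of wide regions, 27.5% of the narrower regions, 27.7% of the 10 kb flanks and 15.0% of the chromosomes. It touched 3151 of the 3550 regions (88.8%, 95% CI 87.7 to 89.8). Coverage was 36.7% in wide regions wholly in genes and 32.8% in those without a gene.

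In *Ezh2* KO ESCs, which retain EZH1, the H3K27me2 list covered these regions less than their surroundings. It covered 14.2% of the wide regions, below the 16.8% of the chromosomes, the 16.7% of the flanks and the 22.6% of the narrower WT regions. The wide regions were below their own chromosome on 8 of 8 chromosomes with at least 20 wide regions (9.45 to 16.3%, against 15.7 to 22.6% of those chromosomes). Coverage was lower the wider the region, at 10.2% in the 409 regions of at least 10000 bp, and 1953 of 3550 regions were not touched at all, so that the median region had 0% covered. Wide regions wholly in genes had 11.6% covered and intergenic ones 18.1%. With distance from the region centre, coverage rose from 14.3% at 1 kb to 20.5% and 20.6% at 49 kb on either side. The H3K27me1 list of the same line had 25.8% at 1 kb, 22.5% and 21.7% at 5 kb, and 26.2% and 26.4% at 49 kb, so it was lower beside the regions than within them or far away. It covered 25.3% of the wide regions, above the 19.5% of the chromosomes but below the 33.5% of the narrower regions. Within single chromosomes the excess was present on 8 of 8 but small. It ran from 22.9% against 22.7% on chromosome 1 to 27.1% against 24.6% on chromosome 5. Wide regions wholly in genes had 20.8% covered by this H3K27me1 list and intergenic ones 31.5%. An *Ezh2* KO H3K27me1 region without an H3K27me2 region of that line was present at 952 wide regions (26.8%), the opposite at 50 (1.41%), both at 1547 (43.6%) and neither at 1001 (28.2%).

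The lists of both lines without active PRC2 covered the wide regions more than the chromosomes. H3K27me2 of *Ezh1/2* dKO ESCs covered 40.4% of the wide regions and 23.0% of the chromosomes, and that of *Ezh2* Y726D ESCs 47.4% and 23.4%. For H3K27me1 the values were 25.8% and 11.4% in the dKO line, and 36.7% and 12.97% in *Ezh2* Y726D. Against the 42.1% and 44.5% of the narrower regions, H3K27me2 coverage of the wide regions was lower in the dKO line and higher in the Y726D line. As in *Ezh2* KO, H3K27me2 coverage was lower in wide regions wholly in genes than in intergenic ones, at 38.3% and 49.0% in the dKO line and 45.2% and 56.0% in the Y726D line. In each of these 4 lists the wide regions exceeded their chromosome on 8 of 8 chromosomes. An H3K27me2 region of both lines but none of *Ezh2* KO touched 1753 wide regions (49.4%), whereas 26 were touched by no mutant H3K27me2 list (0.732%). These calls were weak. With covering regions at a p of at most 0.01, coverage of wide regions was 1.11% by *Ezh1/2* dKO H3K27me2 and 1.504% by *Ezh2* Y726D H3K27me2, against 5.20% by *Ezh2* KO H3K27me2 and 8.93% by WT H3K27me1. At that p the *Ezh2* KO H3K27me2 list still covered the wide regions less than the chromosomes (7.21%), and the other 6 lists covered them more. Open chromatin was more frequent in and around the wide regions than over the chromosomes in every line. ATAC-seq regions covered 44.1% of the wide regions in WT, 40.8% in the *Ezh2* KO line, 44.5% in the dKO line and 43.5% in the Y726D line. Over the chromosomes the share was 23.1 to 23.9%. In the same order of lines, the 10 kb flanks had 39.4%, 36.3%, 40.1% and 39.3%. The narrower WT regions had 39.4%, 37.6%, 40.1% and 39.5%. The part of accessibility and of GC content in the coverage by the weak lists was not tested.

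**Figure D3:**
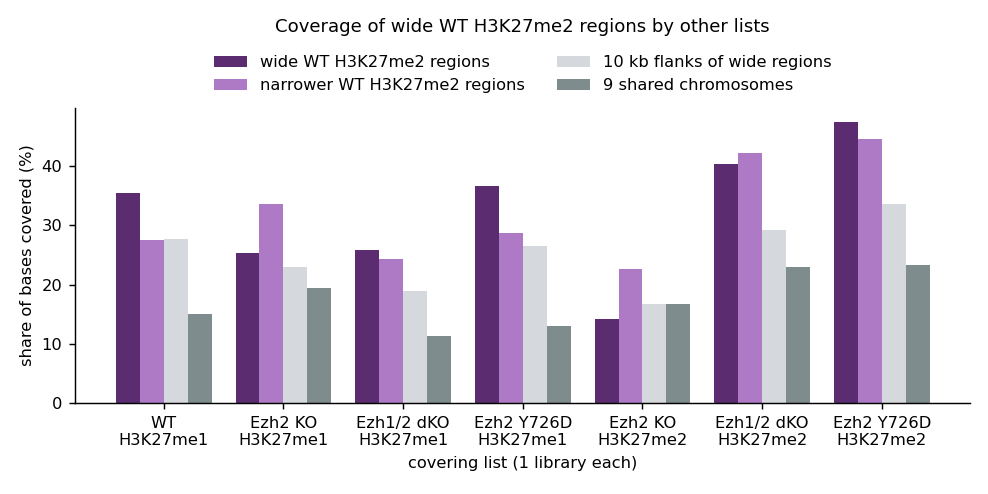
Share of bases (%) covered by 7 H3K27me1 and H3K27me2 lists, 1 library each, in wide and narrower WT H3K27me2 regions, in the 10 kb flanks and over the 9 shared chromosomes. Only the *Ezh2* KO H3K27me2 bar of the wide regions (14.2%) lies below that of the chromosomes (16.8%).

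**Figure D4:**
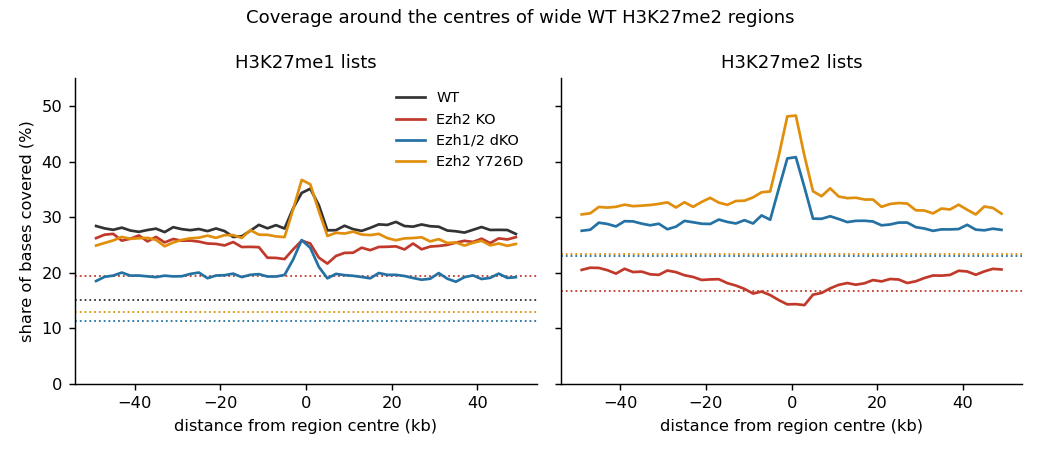
Mean share of bases (%) covered in bins of 2 kb against the distance (kb) from the centre of 3550 wide regions, for the H3K27me1 lists (left) and the mutant H3K27me2 lists (right), with the value over the 9 chromosomes as dotted lines. *Ezh2* KO H3K27me2 dips to 14.3% at the centre, while WT H3K27me1 and the lists of *Ezh1/2* dKO and *Ezh2* Y726D are higher there than at 49 kb.

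The widest regions showed a marked contrast between these lists. As above, coverage counts weak calls against the background of each library and does not show that the mark was kept. By western blot, the paper reports loss of every H3K27 methylation state in the dKO and Y726D lines. With spike-in normalization, it reports loss of H3K27me2 inside poorly expressed genes in these lines and in *Ezh2* KO. For *Ezh2* KO it also reports a gain of H3K27me1 inside poorly transcribed genes that lost H3K27me2, and a loss of H3K27me1 at highly transcribed genes. In the widest region, at *Dnahc8*, H3K27me2 covered 1.14% in the *Ezh2* KO line, 73.8% in the dKO line and 67.1% in *Ezh2* Y726D ESCs, and WT H3K27me1 covered 96.0%. In the second, at *Btbd9*, the H3K27me2 values were 1.58%, 82.0% and 84.96%, with 72.2% for WT H3K27me1. At *Grik3* they were 0%, 40.4% and 57.2%, with 28.8% for WT H3K27me1. The *Ezh2* KO value was the lowest of the mutant H3K27me2 lists in each of the 10 widest regions and lay between 0 and 12.5%. The 5 regions of highest −log10 p differed among themselves. *Ezh2* KO H3K27me2 covered 0% of those in *Fam125b* and *Glo1*, 34.6% of the intergenic one on chromosome 1, 46.8% of the one at *Sfi1*, where *Ezh2* Y726D H3K27me2 covered 46.2%, and 70.6% of the intergenic one on chromosome 17. The dense stretch of chromosome 17 as a whole had 10.4% covered by *Ezh2* KO H3K27me2, against 17.1% of chromosome 17, and 42.4% and 44.3% by the lists of *Ezh1/2* dKO and *Ezh2* Y726D.

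H3K27me3 and SUZ12 were nearly missing from wide regions, as they were from the narrower WT H3K27me2 regions. WT H3K27me3 peaks covered 0.180% of their bases, against 0.949% of the flanks and 0.600% of the chromosomes, and 94 of 8766 such peaks on these chromosomes touched a wide region (1.07%). For WT SUZ12 it was 0.0541%, 0.383% and 0.252%, and 25 of 2742 peaks. The narrower WT regions had slightly less than the wide ones, with 0.110% covered by WT H3K27me3 and 0.0403% by WT SUZ12. *Ezh2* KO H3K27me3 peaks covered 0.108% of the wide regions, 0.108% of the narrower ones and 0.594% of the chromosomes.

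H3K27ac peaks, listed here for the mutants, showed the opposite. They covered 2.34% of the wide regions in the *Ezh2* KO line (0.804% of the chromosomes), 1.63% in the dKO line (0.455%), 7.38% in *Ezh2* Y726D (1.42%) and 6.13% in *Ezh2* R685C ESCs (1.963%). Narrower WT regions had 0.846%, 0.520%, 2.42% and 2.43% in the same order. The 10 kb flanks of the wide regions had 3.72%, 2.30%, 7.08% and 8.38%, so only in *Ezh2* Y726D was coverage higher in the wide regions than beside them. A peak touched 760 of the 3550 wide regions in the *Ezh2* KO line (21.4%, 95% CI 20.1 to 22.8), 570 in the dKO line (16.1%, 14.9 to 17.3), 1459 in *Ezh2* Y726D (41.1%, 39.5 to 42.7) and 1259 in *Ezh2* R685C (35.5%, 33.9 to 37.1). A peak of *Ezh2* Y726D and none of *Ezh2* KO lay in 764 regions (21.5%), the opposite in 65 (1.83%), a peak of all 4 lines in 380 (10.7%) and of none in 1793 (50.5%). The lists held 12628, 8760, 21064 and 20544 peaks on these chromosomes, and the regions touched followed the same order. As a share of each list, 8.72%, 9.22%, 12.3% and 9.92% of the peaks touched a wide region. These peaks were mostly away from promoters. Within 1 kb of a TSS lay 16.9% of the *Ezh2* Y726D peaks in wide regions and 36.2% of the peaks elsewhere, and in the other lines it was 16.5 to 18.4% and 34.3 to 41.7%. WT H3K27ac was not analysed here.

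RNA of member genes was then compared between each mutant and WT, with calls at a limma adjusted p under 0.1 and a log2 fold change of at least 1 in either direction. Fold changes are on the scale of log2 of the normalized count + 1, which understates those of low genes. The targeted genes first checked the lines. *Ezh2* had 598 and 546 normalized counts in WT, 1.05 and 0.968 in the *Ezh2* KO line, 0.824 and 1.78 in the dKO line and 422 and 613 in the Y726D line. *Ezh1* had 227 and 377 normalized counts in WT, 372 and 378 in the *Ezh2* KO line, 14.01 and 20.4 in the dKO line and 24.1 and 15.7 in the Y726D line, whose parental cells lack it. *Eed* and *Suz12*, which encode the other PRC2 core subunits, had limma adjusted p between 0.214 and 0.924 over the 3 mutants. None of the 4 genes overlapped a wide region. Summed counts of 10 pluripotency markers were 14267 to 18121 over the 8 libraries. Those of 8 primitive endoderm markers were 91.9 to 167 in WT and *Ezh2* KO and 781 to 1042 in the other two lines, where 3 and 1 were called higher, and *Sox17* and *Foxa2* stayed under 5 everywhere. Those of 6 trophectoderm markers were 243 to 288 in WT, 462 to 472 in *Ezh2* KO, 719 to 805 in the dKO line and 654 to 1153 in *Ezh2* Y726D, where 3 were called higher in each of the last pair of lines, and *Elf5* stayed under 5. The sums of 5 two-cell-like markers (4 in the table) were 328 to 756 in WT, 19.9 to 27.1 in *Ezh2* KO, 753 to 1084 in the dKO line and 70.4 to 161 in *Ezh2* Y726D, with 3 called lower in *Ezh2* KO and 2 in *Ezh2* Y726D. Those of 7 fibroblast markers (6 in the table) were 589 to 1788 over all libraries, with 1 called higher in each of the lines without active PRC2 and *Dcn* under 5. In bulk RNA, fewer cells of a type and less RNA per cell cannot be told apart. The part of such cells in the calls was not tested.

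Most member genes did not pass the test in any mutant. Of the 2865, 2504 had a mean normalized count of at least 5 and were tested, 361 were below it, and 2354 of the tested ones were called in no line. In *Ezh1/2* dKO, 90 member genes were called higher (3.59%, 95% CI 2.93 to 4.40), where 3.63% of all 13872 genes tested were, and 12 lower (0.479%), where 0.389% of all were. In *Ezh2* Y726D, 40 were higher (1.60%, 1.18 to 2.17), against 1.66% of all, and 36 lower (1.44%, 1.04 to 1.98), against 1.06%. In *Ezh2* KO, 3 were higher, against 0.0937% of all, and 7 lower, against 0.31%. The shares of member genes called were thus near those of all genes in each line. With quantile normalization, the dKO counts were 51 higher and 33 lower. The counts depended on single libraries. Without *Ezh1/2* dKO replicate 1 or without replicate 2, limma called 0 member genes in that line, with 147 and 148 higher and 43 and 24 lower at an unadjusted p under 0.05, while edgeR and DESeq2 on all libraries called 94 and 98 higher. Without *Ezh2* KO replicate 2 the counts were 0 and 0 (36 higher and 82 lower unadjusted), without replicate 1 they were 1 and 1, without WT replicate 1 they were 1 and 0 (59 and 64 unadjusted) and without WT replicate 2 they were 13 and 13. In *Ezh2* KO, edgeR called 1 and 3 and DESeq2 8 and 20. With the *Ezh2* Y726D line, leaving out its replicate 1 gave 84 lower, and leaving out its replicate 2 gave 24 higher and 23 lower. A fit with only the WT and *Ezh2* Y726D libraries called 2 higher and 3 lower.

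Median log2 fold changes of the 2504 tested member genes were 0.14 in the dKO line, 0.04 in *Ezh2* KO and 0.04 in *Ezh2* Y726D, beside 0.01, −0.01 and −0.01 over all genes tested. Both libraries lay above both WT libraries for 33.0% of the member genes in the dKO line (28.0% of all genes tested), 21.8% in the *Ezh2* KO line (18.0% of all) and 22.5% in *Ezh2* Y726D (19.0% of all). Both lay below for 17.3% (24.5% of all), 15.2% (17.6% of all) and 18.01% (18.1% of all). The filter needs a mean over all libraries, so a gene low in WT entered only where a mutant was high.

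Member genes with an H3K27ac peak in their wide region were compared with those without on the shared chromosomes. In *Ezh2* Y726D, 647 genes with a peak had a median log2 fold change of 0.12 and 12 were called higher (1.85%), and 599 without had 0.05 and 8 (1.34%), beside 1.66% of all genes tested. Called lower were 7 and 7. In *Ezh1/2* dKO, 290 with a peak had 0.19 and 15 called (5.17%), and 956 without had 0.11 and 37 (3.87%), beside 3.63% of all, and 2 and 7 were called lower. In *Ezh2* KO, 388 with a peak had a median of 0.08 and 858 without had 0.03. Both genes that limma called higher there were without a peak, and 2 with and 3 without were called lower, beside 0.0937% and 0.31% of all. The difference between these groups was not tested.

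The genes named here for the 10 widest regions that were tested had limma adjusted p of 0.144 to 0.989 over the 3 mutants. *Btbd9* had 232 and 305 normalized counts in WT, 313 and 316 in the *Ezh2* KO line, 259 and 308 in the dKO line and 313 and 317 in the Y726D line. *Dnahc8* had 674 and 788 normalized counts in WT, 643 and 795 in the *Ezh2* KO line, 838 and 547 in the dKO line and 702 and 628 in the Y726D line. The log2 fold changes of both genes lay between −0.13 and 0.24, and no mutant had both libraries outside the WT range on 1 side by more than the WT libraries differed. *Arc* had 534 and 280 in WT and 122 and 177 in the *Ezh2* KO line (log2 fold change −1.39 ± 0.36 SE, limma adjusted p = 0.222). It had 134 and 240 in the dKO line (−1.10 ± 0.36, limma adjusted p = 0.144). In the Y726D line it had 218 and 224 (−0.80 ± 0.36, limma adjusted p = 0.347). The libraries of each mutant lay below both WT libraries, but all of these differences missed the limit. *Rxra* had 124 and 90.5 normalized counts in WT, 62.7 and 119.02 in the *Ezh2* KO line, 178 and 239 in the dKO line and 158 and 234 in the Y726D line, and *Ccdc85c* did not pass the filter.

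The largest called fall among member genes was in the same gene in each mutant. *Maml2*, a coactivator of Notch signalling with 8.99 kb of its 89.4 kb in wide regions, had 153 and 131 normalized counts in WT, 4.18 and 2.90 in the *Ezh2* KO line, 18.96 and 9.77 in the dKO line and 8.02 and 2.24 in the Y726D line. All mutant libraries lay far below WT. The log2 fold changes were −4.99 ± 0.60 (SE, limma adjusted p = 0.0128) in *Ezh2* KO, −3.28 ± 0.60 (0.0308) in the dKO line and −4.72 ± 0.60 (0.0113) in *Ezh2* Y726D. It was the only member gene called lower in all 3 lines. The only one called higher in all 3 was *Fam213a*, which encodes a peroxiredoxin-like protein, with 107 and 83.8 normalized counts in WT, 259 and 206 in the *Ezh2* KO line, 370 and 316 in the dKO line and 273 and 204 in the Y726D line. Its log2 fold changes were 1.28, 1.84 and 1.31, each with an SE of 0.23. The 3 comparisons share the WT libraries. Both genes lost their call in the dKO line without either library of that line, and in *Ezh2* KO without either library of that line or without WT replicate 1. *Fam213a* also lost it in *Ezh2* KO without WT replicate 2, with edgeR, with quantile normalization, without a filter and with only the libraries compared. Their calls in *Ezh2* Y726D held without any 1 library, and that of *Fam213a* was lost with only the libraries compared.

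Further called falls were in *Plagl1*, *Creb5*, *Cobll1*, *Cacna1s*, *Dlgap3* and *Def6*. *Plagl1*, an imprinted zinc-finger gene with 29.6% of its length in wide regions, had 227 and 187 normalized counts in WT, 23.0 and 33.9 in the *Ezh2* KO line, 88.2 and 69.3 in the dKO line and 6.24 and 11.2 in the Y726D line (log2 fold change −4.46 ± 0.39 SE, limma adjusted p = 0.00197). *Creb5*, a transcription factor gene, had 29.3 and 32.7 in WT and 4.46 and 0 in *Ezh2* Y726D (−3.78 ± 0.73, limma adjusted p = 0.0453). *Cobll1*, which encodes an actin-binding protein, had 14.7 and 12.5 in WT and 0 in both *Ezh2* KO libraries, at least 4.50-fold lower by a floor of 3 reads per library. *Cacna1s*, a subunit of the L-type calcium channel with only 0.629 kb in a wide region, had 42.7 and 17.3 in WT, 1.05 and 1.94 in the *Ezh2* KO line and 95.6 and 156 in the dKO line, and was called lower in the former and higher in the latter. *Dlgap3*, a postsynaptic scaffold gene, had 261 and 285 in WT and 69.2 and 40.8 in the dKO line. *Def6*, a guanine nucleotide exchange factor gene, had 141 and 165 in WT, 47.0 and 28.1 in the *Ezh2* KO line and 45.3 and 27.5 in the dKO line, both below WT. The call of *Plagl1* in *Ezh2* Y726D held without any 1 library, that of *Creb5* was lost without either WT library, and those in *Ezh2* KO and in the dKO line were lost without either library of the line concerned, the former also without WT replicate 1. Without WT replicate 2, *Cacna1s* lost its call in the dKO line and *Def6* in *Ezh2* KO. Over all refits, the call of *Def6* in *Ezh2* KO was kept in 3 and lost in 9. Both calls of *Cacna1s* were also lost with the replicate block, with quantile normalization and without a filter, that in *Ezh2* KO also with edgeR and with only the libraries compared, and that in the dKO line also with a pseudocount of 0.5 and with the crossed block.

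The largest called rises of *Ezh1/2* dKO and *Ezh2* Y726D were in *Cd44*, *Syt13* and *Nfia*, all at 0 in at least 1 WT library. These genes passed the filter on the mean over all libraries through their mutant libraries, so their calls and rank are a description. *Cd44*, the hyaluronan receptor, had no read in WT, 5.23 and 8.71 normalized counts in *Ezh2* KO, 27.2 and 35.5 in the dKO line and 5.35 and 15.7 in *Ezh2* Y726D, at least 9.10-fold higher in the dKO line and at least 3.05-fold higher in *Ezh2* Y726D by the same floor. *Syt13*, a synaptotagmin, had 0 and 1.93 in WT, 46.2 and 37.3 in the dKO line and 14.3 and 16.8 in *Ezh2* Y726D (limma adjusted p = 0.0111 and 0.0415). *Nfia*, a transcription factor of the nuclear factor I family, had 0 and 9.63 in WT, 70.1 and 58.6 in the dKO line and 43.7 and 64.9 in *Ezh2* Y726D (limma adjusted p = 0.0452 and 0.0678). WT replicates differed more for *Nfia* than for the other two genes. Wide regions took 7.13%, 14.2% and 1.202% of the length of *Cd44*, *Syt13* and *Nfia*. In *Ezh2* KO the 3 called rises were *Fam213a*, *Atp6v0a4* and *Meis2*. *Atp6v0a4*, a subunit of the proton pump V-ATPase, had 41.4 and 21.2 in WT and 123 and 105 in the *Ezh2* KO line, and *Meis2*, a homeobox transcription factor gene, 204 and 210 in WT and 551 and 518 in the *Ezh2* KO line (limma adjusted p = 0.0860 and 0.0262). Without *Ezh2* Y726D replicate 2 the calls of *Cd44*, *Syt13* and *Nfia* in that line were lost, and without either library of the dKO or *Ezh2* KO line so were the calls named here for those lines. In *Ezh2* KO, *Meis2* was also lost without WT replicate 1 and *Atp6v0a4* without WT replicate 2. The call of *Atp6v0a4* in *Ezh2* KO was lost as well with edgeR, with quantile normalization, without a filter, with only the libraries compared and with the replicate block.

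**Figure D5:**
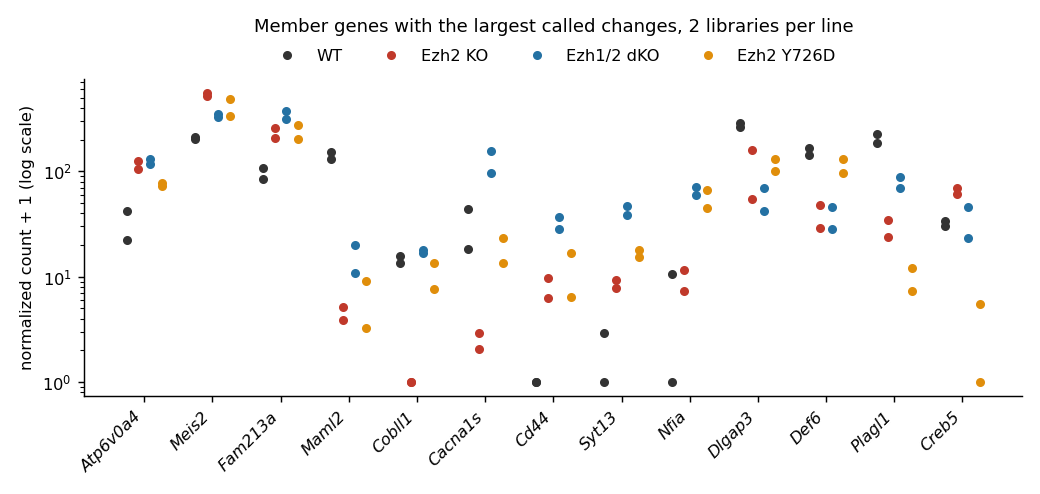
Normalized count + 1 (log scale) in both RNA-seq libraries of each line for the 13 member genes with the largest called changes. *Maml2* is lower in all mutant libraries than in WT, and *Cd44*, *Syt13* and *Nfia* are higher in the dKO line and *Ezh2* Y726D than in WT.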

How the data were processed

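ChIP-seq and ATAC-seq lists (1 library per line and target) and RNA-seq (2 libraries in each of 4 lines) of mouse ESCs were used. For chromatin data the authors used Bowtie (mm9, unique alignments), Picard to drop duplicates, and MACS2. Their deposited lists hold −log10 p and, for H3K27me1 and H3K27me2, the fold enrichment as a ratio over the background of the same library. The deposited RNA-seq signal is a normalized count, HTSeq-count reads per RefSeq gene (unstranded, TopHat alignments) divided by a DESeq2 size factor. Divided by the lowest value above 0 in its library, 100% of the values came out whole (tolerance 0.01 of a read), which gave the reads per library (3604123 to 5181553). Depth of the ChIP-seq and ATAC-seq libraries is unknown. Unstranded counts cannot separate a gene from an antisense neighbour. The deposited comparisons hold the authors' fold changes and p-values and were not used, nor were HA lists.

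Bases were counted with Python 3.11.15, pandas 2.3.3 and numpy 2.4.6 on assembled bases of mm9 without N, with GENCODE genes of that build. Sequence was read with pysam 0.24.0. Of 18055 genes in the table, 16450 were matched by symbol, 851 by RefSeq synonym and 754 not. RNA was tested with limma 3.58.1 (R 4.3.3, trend, log2 of normalized count + 1, all 8 libraries, mean of at least 5, Benjamini-Hochberg). edgeR 4.0.16 (quasi-likelihood) and DESeq2 1.42.0 ran on the recovered reads. Interval counts and the limma fit were tested on simulated data, where 85% of 200 genes changed 4-fold between *Ezh2* KO and WT were called, with 12 false calls among 13806 genes. A comparison without change gave 0 calls at an adjusted p under 0.1. Figures were drawn with matplotlib 3.10.9.

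Named regions are the 10 widest, the 5 of highest −log10 p and those next to the limit. Named genes are those of the 10 widest regions, the 10 with most bases in wide regions, up to 4 members of each list (olfactory, vomeronasal, neuronal adhesion, PcG and ribosomal), the 3 largest called rises and falls per line with no overlap between libraries, and the PRC2 core. Genes that the rule names but the text does not are not reported here. The regions, lists and tests were chosen with earlier results of these data known. Alternatives of width, p, sub-blocks, gene models, filters, scaling and tests are given in the closing section.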

Additional observations from a re-analysis of the deposited data

How the results depend on the processing

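Of the share of bases inside genes (62.2%), 59.5% remained with protein-coding genes only, and it was 68.1% at a width of at least 10000 bp and 67.8% in strong sub-blocks. Coverage at a width of at least 10000 bp was 38.8%, 22.8%, 29.8% and 40.5% by H3K27me1 of WT, the *Ezh2* KO line, the dKO line and the Y726D line, and 10.2% by *Ezh2* KO H3K27me2. With covering regions at a p of at most 0.01, H3K27me1 covered 8.93%, 1.61%, 1.09% and 0.343% in the same order, and H3K27me2 covered 5.20%, 1.11% and 1.504% in the *Ezh2* KO, dKO and Y726D lines. Strong sub-blocks covered 0.371%, 0.0285%, 0.00190% and 0.0229% (H3K27me1) and 0.253%, 0.00393% and 0.0110% (H3K27me2). Coverage relative to the chromosomes kept its direction for all 7 lists under these settings, and under 2 settings chosen after seeing the data: without the dense stretch of chromosome 17, and on all chromosomes that both lists hold, where *Ezh2* KO H3K27me1 covered 23.8%. For the strong sub-blocks the direction rests on very few bases and carries little weight. With dKO H3K27me1 it was 0.00190% of the wide regions against 0.00110% of the chromosomes. The cause of the moves was not tested.

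The median WT level of member genes (79.97) was 44.8 for a TSS in the region, 106 above the filter, 114 at a width of at least 10000 bp, and 76.0 and 80.9 with 1 WT library left out.

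Counts of called member genes are given as higher and lower. In *Ezh2* KO (3 and 7) they were 1 and 4 without a filter or with quantile normalization, 4 lower with only the libraries compared, 1 and 3 with edgeR, 8 and 20 with DESeq2, 0 and 0 for a TSS in the region (10 and 8 at an unadjusted p under 0.05 with limma), and 0 to 13 and 0 to 13 with 1 library left out. In *Ezh1/2* dKO (90 and 12) they were 51 and 33 with quantile normalization, 11 and 1 for a TSS in the region, and 0 to 91 and 0 to 13 with 1 library left out. In *Ezh2* Y726D (40 and 36) they were 25 higher without a filter, 2 and 3 with only the libraries compared, 6 and 5 for a TSS in the region, and 24 to 50 and 23 to 84 with 1 library left out. Quantile normalization thus moved the split in *Ezh1/2* dKO from 90 to 12 to 51 to 33. The lone library of a line was assumed to vary like the others.

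Replicates with the same number deviated from their line means with correlations of −0.41 to 0.29, so the numbers were not used as pairs. With the replicate block the counts were 2 and 4 in *Ezh2* KO, 79 and 12 in *Ezh1/2* dKO and 38 and 36 in *Ezh2* Y726D. With the numbers crossed, added after seeing the data, they were 43 and 7 in *Ezh1/2* dKO and 39 and 38 in *Ezh2* Y726D.

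The 28 fold changes of named genes kept their sign in all 350 refits and their call in 268. Without replicates for the lists and with unknown depth, coverage differences between lines have no error estimate.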

Other observations

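In *Ezh2* R685C ESCs, which were not part of the H3K27me1 and H3K27me2 comparison, H3K27me3 peaks touched 165 of the 3550 wide regions (4.65%, Wilson 95% CI 4.003 to 5.39), against 66 in WT (1.86%, 1.46 to 2.36). The R685C list held 11647 peaks on these chromosomes and the WT list 8766, and 1.98% and 1.07% of them touched a wide region. With 1 library each, the difference was not tested. SUZ12 peaks of *Ezh2* R685C touched 5 wide regions and those of *Ezh2* Y726D 25, of 1685 and 1756 peaks.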
